A study of Mus musculus with 3 samples.

Results

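The colony-stimulating factors, the receptor chains that bind them and the JAK2-STAT5 arm that they drive were followed across 3 RNA libraries of cultured mouse endothelium. The 10 genes were chosen by symbol, with earlier results of these data known. All 10 were among the 18287 genes that the deposited tables list. They are the growth factors Csf1, Csf2 and Csf3, the receptor chains Csf2ra, Csf2rb and Csf2rb2, the kinase Jak2, the transcription factors Stat5a and Stat5b, and the feedback inhibitor Cish. The cells were purchased primary endothelial cells of the mouse aorta, and each group was 1 library. The first group is labelled only as control. A second group was labelled as given glucose oxidase, an enzyme that oxidises glucose and releases hydrogen peroxide, for 30 min at 5 mU/mL. The third group was labelled with the same glucose oxidase exposure plus Et2HOBA (ethyl-2-hydroxybenzylamine) at 0.2 mM for 24 h. Et2HOBA is a scavenger of isolevuglandins, the reactive lipid products named in the title of the study. The labels give neither the order of the exposures nor how many cultures went into a library, and no library with Et2HOBA alone was analysed here.

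Colony-stimulating factors are secreted proteins that support the survival and growth of myeloid cells. GM-CSF, the product of Csf2, binds an alpha chain (Csf2ra) that pairs with the common beta chain (Csf2rb), which is also used by the IL-3 and IL-5 receptors. In the mouse a neighbouring copy, Csf2rb2, encodes a beta chain that serves IL-3. The beta chain carries JAK2, which phosphorylates STAT5A and STAT5B. STAT5 switches on Cish, whose product is a SOCS family protein that damps the receptor. M-CSF, the product of Csf1, and G-CSF, the product of Csf3, use receptors of their own. Endothelial cells are a known source of all 3 factors, and inflammatory stimuli are known to raise Csf2 and Csf3 in them.

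Each group is 1 library, so the differences below lack a replicate check and the conditions could not be tested against each other. Values are therefore given as reads, as ratios of counts scaled between libraries, and as exact 95% intervals (Clopper-Pearson) that cover counting error only. The libraries held 35005089 to 40212212 reads over the listed genes. For the glucose oxidase library the reads were worked back from deposited differences, as set out under the processing of the data. Where reads are given for the libraries in turn, control comes first, glucose oxidase next and Et2HOBA last. A log2 ratio is taken here after adding a pseudocount of 10 to each scaled count, which shrinks the ratios of low genes. A gene is counted as past the limit when its log2 ratio is at least 1 in either direction. Levels are compared between genes only as RPKM, reads scaled to the annotated exon length of the gene and to the reads of the library.

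Before the levels, the sequences that decide how far the paired beta chain genes can be told apart are shown. Csf2rb and Csf2rb2 lie on chromosome 15 on opposite strands, with 20030 bases between them, in the build GRCm38 used by the count table. Their coding sequences, of 2688 and 2634 bases in GENCODE release M21, were identical at 95.24% of 2628 aligned bases, and the longest identical run was 242 bases. The aligned window of 60 bases with the most differences (13) is printed for each gene, from coding base 304 to 363 of Csf2rb and from 307 to 366 of Csf2rb2. Capitals mark the bases that differ.
Csf2rb: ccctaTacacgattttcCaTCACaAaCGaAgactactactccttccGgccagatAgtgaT
Csf2rb2: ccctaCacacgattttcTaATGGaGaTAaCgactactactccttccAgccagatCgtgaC
Of the 50-base stretches of the longest transcripts, 892 were common to both genes, which is 18.4% of those of Csf2rb and 19.0% of those of Csf2rb2. At 100 bases the shares were 6.96% and 7.2%. The read length and the handling of reads that fit both genes are not given in the sources used here, so the split between the paralogs is uncertain to that extent.

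The growth factors went different ways. Csf3 and Csf2 were low in control and higher in both treated libraries, whereas Csf1, the most abundant of the 3 factors in every library, was somewhat lower. Csf3 (ENSMUSG00000038067.2, chromosome 11, 98701263 to 98703629, plus strand), which encodes the neutrophil growth factor G-CSF, had 55 reads in control, 89 reads with the enzyme alone and 432 when Et2HOBA was added. Control is the lowest library, and the library with Et2HOBA stands well above the other two. After glucose oxidase the scaled count was 1.73-fold that of control (95% interval 1.22 to 2.47). With Et2HOBA it was 7.80-fold that of control (5.88 to 10.5) and 4.51-fold that of glucose oxidase alone (3.58 to 5.73). The log2 ratios were 0.69, 2.75 and 2.06, in the same order. Only 0.623% of all listed genes had a higher log2 ratio than Csf3 between the Et2HOBA library and control.

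Csf2 (ENSMUSG00000018916.5, chromosome 11, 54247271 to 54249667, minus strand) had 6, 34 and 44 reads in the libraries in turn. The control library is the low one, and both treated libraries are alike within counting error. The scaled count was 6.06-fold that of control after glucose oxidase (2.51 to 17.7) and 7.29-fold with Et2HOBA (3.09 to 20.9). Between the treated libraries the ratio was 1.20 (0.751 to 1.94), an interval that includes equal levels. The control library enters the first pair of ratios with only 6 reads. Exons of Csf2 overlap those of Gm12223 on the other strand, and 6.39% of its 50-base stretches also occur in other genes. The library kit keeps the strand, but the strand setting of the counting is not given in the sources used here.

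Csf1 (ENSMUSG00000014599.10, chromosome 3, 107741048 to 107760469, minus strand) encodes M-CSF, which acts on macrophages and their precursors. It had 6542, 4909 and 4947 reads. The treated libraries lie together below control. The ratios to control were 0.802 (0.773 to 0.833) and 0.751 (0.724 to 0.780), and the ratio between the treated libraries was 0.937 (0.900 to 0.975). In log2 units these were -0.32, -0.41 and -0.09, none of them past the limit. The receptor for M-CSF, Csf1r, a myeloid gene, had 6, 12 and 10 reads, and its exons overlap those of Hmgxb3 on the other strand.

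**Figure D1:**
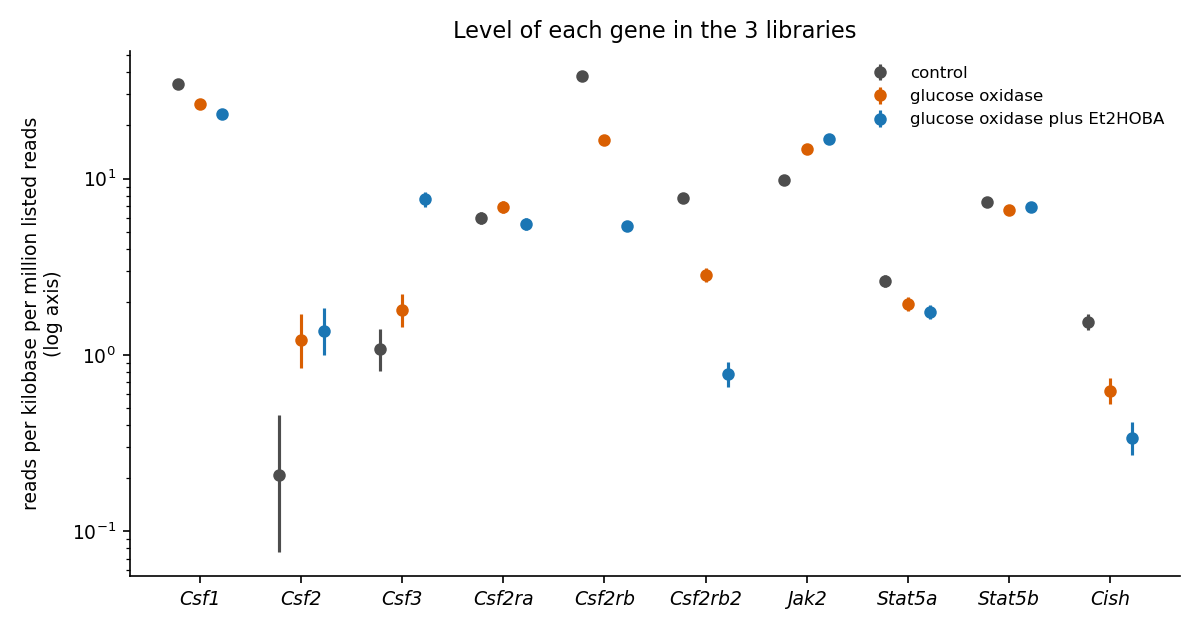
Level of each gene in RPKM (log axis) in each of the 3 libraries, with 1 point per library and bars for exact 95% Poisson intervals, which cover counting error only. Csf2rb, Csf2rb2 and Cish step down from control to glucose oxidase to Et2HOBA, Csf3 steps up to 7.60, and Stat5b stays between 6.62 and 7.37.

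Among the receptor chains the beta chains were lower in the treated libraries, while the alpha chain was nearly level. Csf2rb (ENSMUSG00000071713.6, chromosome 15, 78325752 to 78353847, plus strand) was the most highly expressed of the 10 genes in control, at 38.1 RPKM. It had 9961 reads there, 4185 after glucose oxidase and 1582 with Et2HOBA. Control is the highest library and Et2HOBA the lowest, and no counting intervals overlap. The ratios were 0.449 after glucose oxidase (0.433 to 0.466) and 0.158 with Et2HOBA (0.150 to 0.166), both against control. The library with Et2HOBA had 0.351 of the level after glucose oxidase alone (0.331 to 0.372). The log2 ratios were -1.15, -2.66 and -1.50. Between the treated libraries only 0.323% of all listed genes had a lower log2 ratio.

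Csf2rb2 (ENSMUSG00000071714.7, chromosome 15, 78282507 to 78305721, minus strand) had 1326, 471 and 148 reads. It followed the same order as Csf2rb at a lower level. The ratios were 0.380 (0.341 to 0.422) and 0.111 (0.0929 to 0.132) against control, and 0.292 (0.241 to 0.352) between the treated libraries. In log2 units these were -1.38, -3.09 and -1.71. With Et2HOBA its ratio to control was the lowest of the 10 genes.

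The paralogs did not keep a fixed proportion. Csf2rb2 supplied 11.7% of the reads of both genes in control (95% interval 11.2 to 12.4), 10.1% after glucose oxidase (9.26 to 11.0) and 8.55% with Et2HOBA (7.28 to 9.97). The interval of control does not overlap those of the treated libraries, which overlap each other. When the paralogs were summed, which removes the question of how shared reads were split between them, the log2 ratios were -1.18, -2.71 and -1.53. These are close to those of Csf2rb alone.

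**Figure D2:**
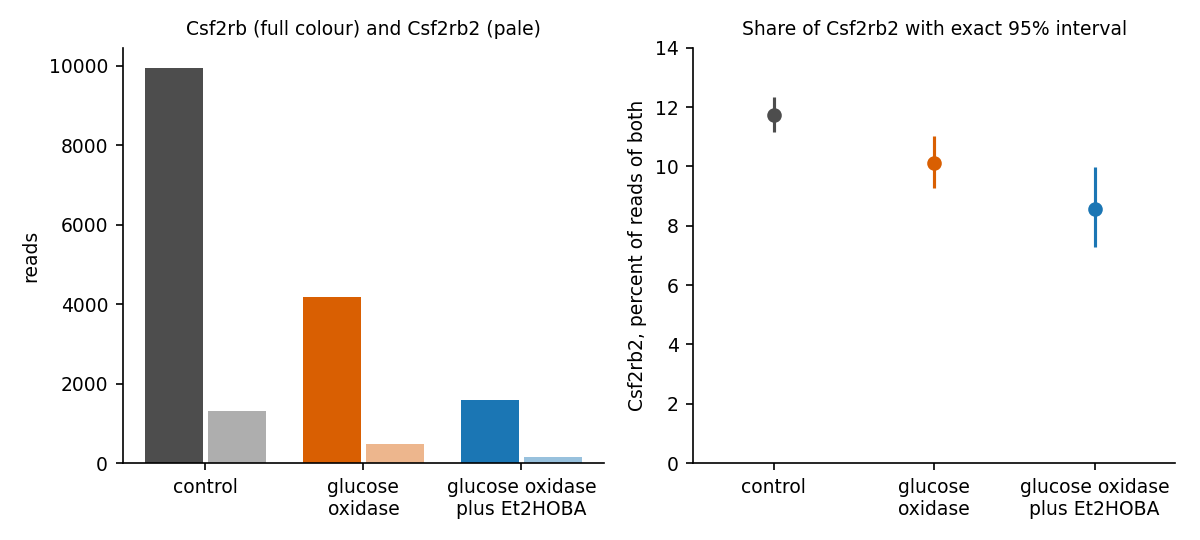
Left, reads of Csf2rb (full colour) and Csf2rb2 (pale) in each library, from 0; right, Csf2rb2 as a percentage of the reads of both genes with exact 95% binomial intervals. Both genes are lower in each treated library, and the share of Csf2rb2 is 11.7% in control and 8.55% with Et2HOBA.

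Csf2ra (ENSMUSG00000059326.7, chromosome 19, 61223957 to 61228429, minus strand), the GM-CSF binding chain, had 615, 695 and 639 reads. The ratio to control was 1.21 after glucose oxidase (1.08 to 1.35) and 1.03 with Et2HOBA (0.923 to 1.16), and between the treated libraries it was 0.855 (0.766 to 0.953). None of these passed the limit. In RPKM the beta chain Csf2rb stood far above the alpha chain in control, at 38.1 against 5.96, and at 16.4 against 6.92 after glucose oxidase. With Et2HOBA both were near the same level, at 5.41 and 5.53, with overlapping counting intervals. This closeness depends on the exon lengths used, 7277 bases for Csf2rb and 2871 for Csf2ra. Each is the union over all annotated transcripts and exceeds the longest transcript of the gene. Il3ra, the IL-3 binding chain, had 906, 882 and 863 reads, with log2 ratios of 0.06, -0.08 and -0.14. Il3, Il5, Il34, Csf3r and Il5ra, from the same list of 7 related ligands and receptors, were not among the listed genes. The tables list no gene that stayed under 5 reads in all libraries.

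Downstream of the receptors, Jak2 was higher in both treated libraries, but neither Jak2 nor the STAT5 genes passed the limit in any comparison. Jak2 (ENSMUSG00000024789.13, chromosome 19, 29251828 to 29313080, plus strand) had 1778, 2573 and 3373 reads. Control is the lowest library and Et2HOBA the highest. The ratios to control were 1.55 (1.46 to 1.64) and 1.89 (1.78 to 2.00), and the ratio between the treated libraries was 1.22 (1.16 to 1.28). Its log2 ratio of 0.91 with Et2HOBA lies just under the limit.

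Stat5a (ENSMUSG00000004043.14, chromosome 11, 100859351 to 100885169, plus strand) had 676, 487 and 501 reads, so that both treated libraries were below control. Its ratios to control were 0.770 (0.684 to 0.867) and 0.736 (0.655 to 0.828). Between the treated libraries it was 0.956 (0.842 to 1.09), an interval that includes equal levels. Stat5b (ENSMUSG00000020919.11, chromosome 11, 100780731 to 100850724, minus strand) had 1468, 1284 and 1541 reads. The ratios to control were 0.935 (0.867 to 1.01) and 1.04 (0.970 to 1.12), and both intervals include equal levels. The ratio between the treated libraries was 1.12 (1.04 to 1.20). These 2 genes are neighbours and share 50-base stretches, 10.8% of those of Stat5a and 11.8% of those of Stat5b, so their split is also uncertain to that extent.

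Cish (ENSMUSG00000032578.7, chromosome 9, 107296026 to 107302784, plus strand), the STAT5-induced inhibitor, had 354, 140 and 87 reads. Control is the highest library and Et2HOBA the lowest, the order also seen for the beta chains. The ratios to control were 0.423 (0.345 to 0.516) and 0.244 (0.191 to 0.310). Between the treated libraries the ratio was 0.578 (0.437 to 0.760). The log2 ratios were -1.19, -1.91 and -0.73. In the authors' deposited table of glucose oxidase against control the log2 difference of Cish was -0.74, which is not past the limit. Exons of Cish overlap those of Gm17040 and Gm17041 on the other strand, and 13.2% of its 50-base stretches also occur in other genes.

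**Figure D3:**
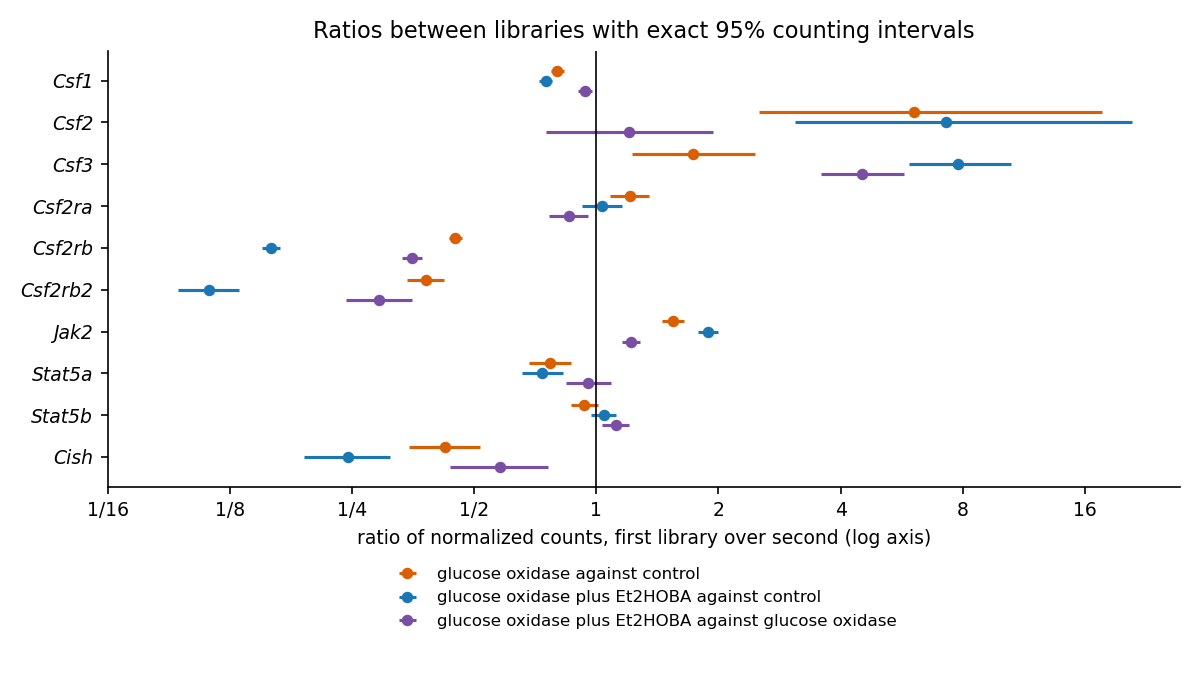
Ratio of scaled counts between pairs of libraries for each gene (log axis), with exact 95% counting intervals; the line at 1 marks equal levels. Csf2 and Csf3 lie to the right against control, Csf2rb, Csf2rb2 and Cish to the left, and Stat5b crosses or touches the line against control.

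Over the 10 genes, 4 passed the limit after glucose oxidase against control, 1 higher (Csf2) and 3 lower (Csf2rb, Csf2rb2 and Cish). Of all 18287 listed genes, 12.7% passed it in the same comparison, 4.07% higher and 8.6% lower. Of the protein-coding genes, which include all 10, 9.3% passed it, 4.53% higher and 4.76% lower. With glucose oxidase plus Et2HOBA against control 5 passed, 2 higher (Csf2 and Csf3) and 3 lower (the same 3 genes), beside 14.7% of all listed genes (6.66% higher, 8.04% lower) and 16.6% of protein-coding genes (7.33% higher, 9.3% lower). Between the treated libraries 3 passed, with Csf3 higher and both beta chains lower, beside 8.55% of all listed genes (6.39% higher, 2.15% lower) and 3.32% of protein-coding genes (0.971% higher, 2.35% lower). The median log2 ratio of the 10 genes was -0.21, -0.18 and -0.08, and that of all listed genes was -0.01 after glucose oxidase and within 0.01 of 0 in the others. These medians join genes that went opposite ways. Both comparisons against control use the same control library. The 10 genes were chosen with earlier results of these data known, so their counts beside these shares do not test the pathway.

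By RPKM the order of the genes was not the same in the 3 libraries. In control it ran Csf2rb (38.1), Csf1 (34.4), Jak2 (9.83), Csf2rb2 (7.78), Stat5b (7.37), Csf2ra (5.96), Stat5a (2.63), Cish (1.53), Csf3 (1.08) and Csf2 (0.209). Of these neighbours, Csf2rb2 and Stat5b, and Cish and Csf3, had overlapping counting intervals. After glucose oxidase Csf1 (26.6) stood first, before Csf2rb (16.4) and Jak2 (14.6). Cish (0.623) was last, below Csf2 (1.21), and the intervals of Csf2ra and Stat5b, of Stat5a and Csf3, and of Csf3 and Csf2 overlapped. With Et2HOBA the order began with Csf1 (23.3), Jak2 (16.7) and Csf3 (7.60) and ended with Csf2 (1.37), Csf2rb2 (0.776) and Cish (0.337). There the intervals overlapped for Csf3 and Stat5b (6.92), for Csf2ra and Csf2rb, and for Stat5a (1.75) and Csf2. Exon lengths are the union over all annotated transcripts, so a gene with long minor transcripts reads low on this scale.

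The size of a difference depended on the scale on which it was deposited. The authors' transformation acts on abundant genes like a pseudocount of 202 reads in the comparison of glucose oxidase and control, 71.1 in that of Et2HOBA and control, and 1236 between the treated libraries. In the authors' deposited table of glucose oxidase against control, Csf2 had a log2 difference of 0.49, against 1.52 on the common scale. In the authors' deposited table of the treated libraries, which holds 7 genes, Csf3 had 0.60 and Csf2rb2 -0.55, against 2.06 and -1.71 on the common scale. Csf2rb, with more reads, had -1.07 there, against -1.50. In the authors' deposited tables the sign of each deposited value of these genes was the same as on the common scale.

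**Figure D4:**
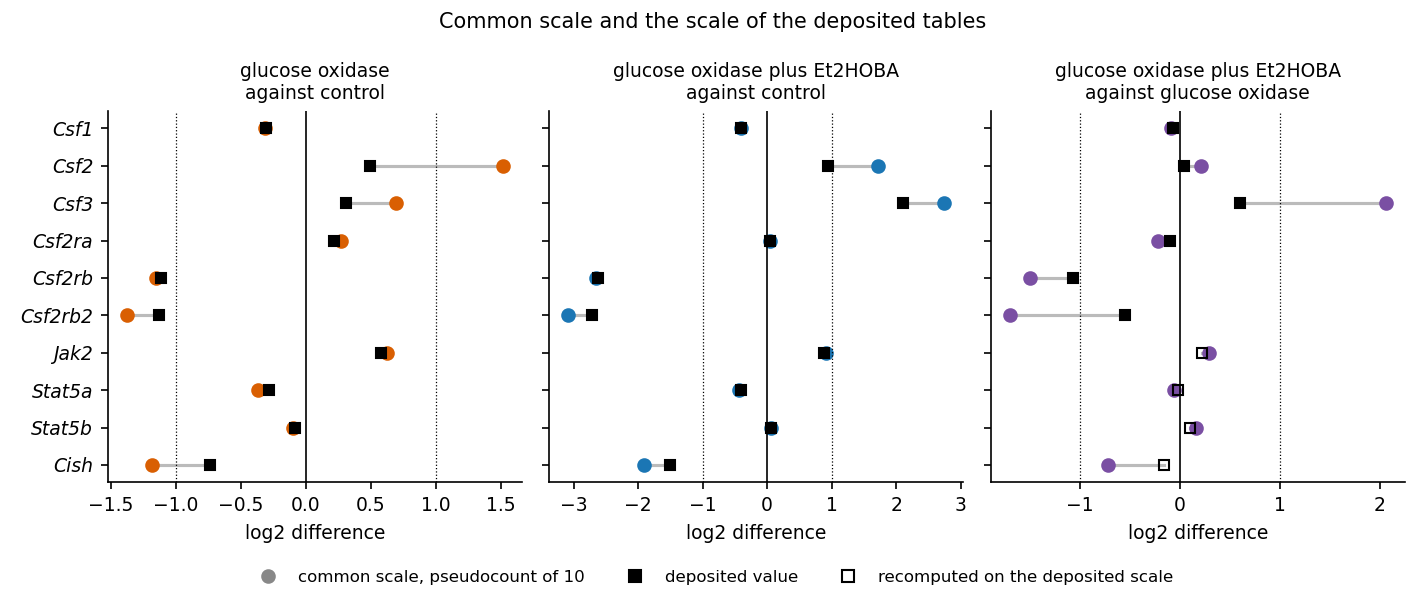
Log2 difference of each gene on the common scale (circles, pseudocount of 10), as deposited (filled squares) and recomputed on the deposited scale otherwise (open squares), for the 3 comparisons; dotted lines mark the limit of 1. Low genes such as Csf2 and Csf3 shrink most, from 2.06 to 0.60 for Csf3 between the treated libraries, while Csf1 hardly moves.

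Other genes of the pathway were taken from lists by role. Among 13 kinases, STATs and adaptors, none passed the limit after glucose oxidase, beside 12.7% of all listed genes. With Et2HOBA, Gab2, a docking adaptor, was higher than control past the limit, with 1525, 2269 and 4004 reads and log2 ratios to control of 0.67 and 1.38. The medians of this list were 0.14 and 0.07.

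Of 15 negative regulators of JAK-STAT signalling, 2 were higher past the limit after glucose oxidase and none lower. Of all listed genes 4.07% were higher and 8.6% lower, and the share in either direction, 12.7%, was near that of the list. With Et2HOBA 4 were higher and 1 lower than control, beside 6.66% and 8.04% of all listed genes. Socs3 had 194, 437 and 450 reads (log2 ratios to control of 1.22 and 1.16), and Socs2 had 357, 636 and 1180 (0.91 and 1.69). Both are SOCS proteins like the product of Cish, which was lower in the same libraries. Cblb, a ubiquitin ligase, had 753, 1446 and 2458 reads (1.03 and 1.68), and Socs6 had 1121, 1503 and 2304 (0.52 and 1.02). Ptpn6, the phosphatase SHP-1, had 97, 49 and 16 reads, with log2 ratios of -0.78 and -2.03. The medians of the list were 0.23 and 0.19.

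Genes known as STAT5 targets in other cells, Cish left out, went both ways. Of 13 listed among 15, 1 was higher and 1 lower past the limit after glucose oxidase, a share near the 12.7% of all listed genes. With Et2HOBA 5 were higher and 1 lower, beside 6.66% and 8.04% of all listed genes. Pim1, a survival kinase, had 91, 175 and 498 reads (log2 ratios to control of 0.96 and 2.32). Bcl2l1, which encodes the anti-apoptotic protein BCL-XL, had 11339, 16884 and 24158 (0.67 and 1.08). Ccnd1, encoding cyclin D1, had 13013, 22429 and 27556 (0.88 and 1.07), and shares 27.2% of its stretches with a gene that overlaps it. Socs2 and Socs3 are also in this list. The lower gene was Igf1, with 1547, 126 and 41 reads and log2 ratios of -3.42 and -4.93. Medians were 0.36 and 0.30.

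Of 8 other receptor chains that signal to STAT5, 5 were listed. After glucose oxidase 1 was lower past the limit and none higher, beside 8.6% and 4.07% of all listed genes. With Et2HOBA 1 was lower and 1 higher than control, beside 8.04% and 6.66%. Counts of 1 among 5 genes are too few to set this list apart from all listed genes. Epor, the erythropoietin receptor, was lower past the limit in both comparisons against control, with 192, 77 and 35 reads and log2 ratios of -1.13 and -2.17. Il2rb had 4, 17 and 37 reads, with log2 ratios of 0.99 and 1.72. Il4ra, Ghr and Il2rg did not pass the limit in any comparison.

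**Figure D5:**
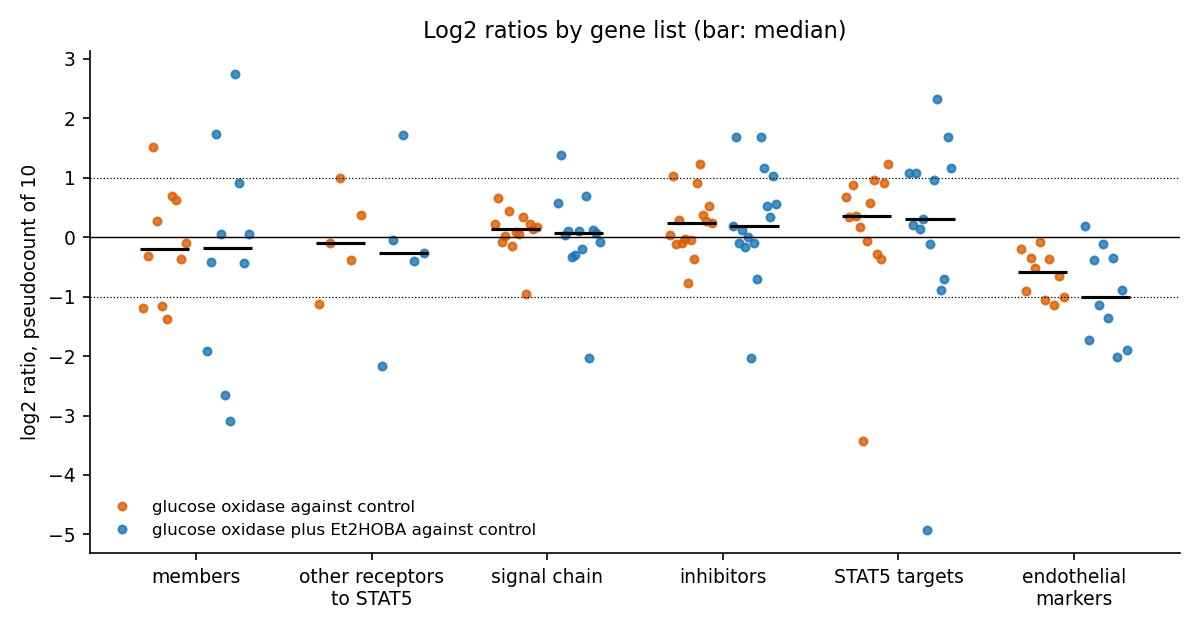
Log2 ratios (pseudocount of 10) of single genes by list, after glucose oxidase (orange) and with glucose oxidase plus Et2HOBA (blue), both against the same control; bars are medians and dotted lines the limit of 1. The 10 genes spread from -3.09 to 2.75, while all 13 signal chain genes stay within the limit after glucose oxidase.

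Markers of the cells were read in the same libraries, since in a bulk sample fewer cells of a type and less RNA per cell cannot be told apart. All 10 endothelial markers were listed. Their summed level was 2583, 1601 and 1296 RPKM in the libraries in turn, of which Cldn5 alone made 993, 507.5 and 270. Of the 10, 3 after glucose oxidase and 5 with Et2HOBA were lower past the limit, beside 8.6% and 8.04% of all listed genes. Tek had log2 ratios to control of -1.14 and -2.01, and Vwf had -1.02 and -1.90. Cldn5 had -0.91 and -1.73, Kdr -1.06 and -1.36, and Erg -0.51 and -1.14. Cdh5, which encodes VE-cadherin, had 55360, 45034 and 63665 reads and did not pass the limit. Neither did Tie1 (-0.66 and -0.88), Eng (-0.34 and -0.39), Pecam1 (-0.38 and -0.35) and Esam (-0.09 and -0.12). Of 12 macrophage and myeloid markers, 5 were listed, and the defining genes Ptprc, Adgre1, Itgam, Spi1, Tyrobp, Laptm5 and Cd52 were not. The summed level of the 5 was 187 RPKM in control, 392 and 556 in the treated libraries. Nearly all of this was Cd68, a lysosomal protein gene, with 8215, 17067 and 27799 reads. Cd14 had 55, 136 and 272 reads and Lyz2 had 186, 76 and 86. Summed smooth muscle markers (4 of 6 listed) lay between 0.356 and 0.564 RPKM, and Myh11 had 19, 35 and 73 reads. Acta2 had 8, 18 and 13 reads, Des 8, 9 and 9, and Tagln 9, 9 and 4. The 3 listed of 6 fibroblast markers had 5.79, 9.67 and 11.3 RPKM, with Pdgfra at 107, 1325 and 2821 reads. The higher sums came from Pdgfra, since Pi16 had 1231, 1284 and 1085 reads and Col1a1 had 28, 30 and 23. The part of these markers in the values of the 10 genes was not tested.

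The genes whose pair of log2 ratios against control lay nearest to that of a member were found among 12396 other genes with a mean scaled count of at least 50, by Euclidean distance over 2 ratios from 3 libraries. For Csf2rb they were Oas2 (distance 0.0137), Tmem229b, Ccdc74a, Gpr182 and Gem (0.158). Oas2, an interferon-induced gene, had 684, 280 and 101 reads. The paralog Csf2rb2, looked up after its values were seen, ranked 107 at a distance of 0.486, because its ratios were lower. For Csf3 the nearest were Gm2399 (0.353), Abtb2, Ccn2, Inhbb and Pim1 (0.511), all farther away than the nearest genes of Csf2rb. For Csf1, whose ratios are small and common, they were Mfsd4a (0.00273), Gm13577, G2e3, Rbms3 and Nup155 (0.0143).

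Promoter sequences from RefSeq (GRCm38.p6), from 250 bases before to 50 after the annotated start, were found for 8 of the 10 genes, in 10 windows. The others, Csf3 and Csf2rb, are not in that table. Each window was searched on both strands for TTCNNNGAA, the palindrome that STAT5 is known to bind. It was present in 2 of the 10 windows, those of Cish and Csf2rb2, and in 8.3% of 32851 promoter windows of all genes. Cish held 2 copies, which begin at bases 1 and 12 after the annotated start, and 0.457% of all windows hold 2 or more. Stretches of 60 bases around the matches are printed on the strand of the gene, with the palindrome in capitals. They are chr9:107296619-107296678 on the plus strand for Cish, ending 20 bases past the start, and chr15:78305712-78305771 on the minus strand for Csf2rb2, ending 10 bases past the start.
Cish: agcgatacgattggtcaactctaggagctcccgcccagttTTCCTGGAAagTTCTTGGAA
Csf2rb2: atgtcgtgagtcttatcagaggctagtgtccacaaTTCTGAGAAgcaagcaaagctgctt
A form of the site bound by NF-kappaB, read as GGGA, any 4 bases and CC, was in the windows of Csf1, Csf2 and Stat5a and in 20.7% of all windows. In Csf1 a match on each strand overlaps within 11 bases, printed in capitals in chr3:107760590-107760649 on the minus strand.
Csf1: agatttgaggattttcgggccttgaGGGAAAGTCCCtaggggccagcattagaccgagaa
TGACGTCA, the cyclic AMP response element, was in the window of Csf2ra and in 1.79% of all windows. TGANTCA (AP-1) and TGATGNAA (a form of the ATF4 element) were in none of the 10 windows and in 7.81% and 3.97% of all. A match describes these letters only and is not evidence of binding.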

How the data were processed

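Polyadenylated RNA of 3 samples, 1 per group, was sequenced from libraries made with a stranded kit, per the labels. STAR, featureCounts and mm10 are named in the submitters' processing notes, with no version. Raw read counts of the control and Et2HOBA libraries were deposited, per the file headers, with log2-like normalized values and their difference. The other comparisons were deposited by the authors as a symbol and a log2 difference only, for 18287 and 7 genes.

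The glucose oxidase reads were recovered. Each deposited difference has the form of an arcsinh transform applied to root counts, with a constant for each library. Inverting it gave values no more than 0.01 from whole for 100% of the 18275 symbols matched (3.31% with 1 read added to each control count). Another 12 genes were placed by whole reads. The recovered reads gave the 7 deposited differences between the treated libraries within 2.9e-09, after a constant of the transform was fitted to the same 7 values. Neither labels nor headers state this step. Gene positions in the table were those of GENCODE M21 for 17878 of 17878 genes with the same version.

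Size factors by median of ratios were 1.03 for control, 0.965 for glucose oxidase and 1.04 with Et2HOBA. The limit of 1 log2 unit with a pseudocount of 10 and the intervals are described with the results. No count model was run, because the spread within a group cannot be estimated from 1 library. Recovery and intervals were tested on simulated data. Total-count, protein-coding and TMM scaling (edgeR 4.0.16), a pseudocount of 1, the authors' scale, limits of 0.5 and 2 and a filter on low counts were tried. Size factors from genes with many control reads, and protein-coding genes as background, were added after the data were seen.

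The 10 genes and all lists were chosen with earlier results of these data known. Named were all 10 genes and, from each list, the genes past the limit against control with a mean scaled count of at least 10, at most 6 by size. Csf1r, Il3ra, Il4ra, Ghr, Il2rg and Cdh5 lie outside this rule and were named after their values were seen. The same holds for the markers Pecam1, Esam, Eng, Tie1, Pi16, Col1a1, Acta2, Des and Tagln. Part of the list results is not reported here. For Csf2rb, Csf3 and Csf1 the 5 genes of nearest pattern were named. Python 3.11.15, numpy 2.4.6, scipy 1.17.1, Biopython 1.88 and R 4.3.3 were used.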

Additional observations from a re-analysis of the deposited data

How the results depend on the processing

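The counts of genes past the limit were 4, 5 and 3 of 10 after glucose oxidase against control, glucose oxidase plus Et2HOBA against control, and between the treated libraries. They were the same under total-count scaling, protein-coding size factors, TMM scaling, a pseudocount of 1, the filter on low counts and the added scaling. With a pseudocount of 1 the share of all listed genes past the limit was larger, at 23.2%, 24.6% and 18.1% against 12.7%, 14.7% and 8.55%. On the authors' scale, which shrinks low genes, they were 2, 4 and 1, with 4.01%, 9.67% and 0.235% of all listed genes past the limit. Csf2 and Cish were not past it there after glucose oxidase, Csf2 with Et2HOBA, and Csf3 and Csf2rb2 between the treated libraries, where Cish was at -0.16. At a limit of 2 log2 units they were 0, 3 and 1, beside 2.88%, 3.8% and 2.14% of all listed genes. At 0.5 they were 6, 6 and 4, beside 33.8%, 40.1% and 25.5%. Total-count scaling put the median of all listed genes at -0.13 with Et2HOBA against control. There Csf2ra moved from 0.05 to -0.10 and Stat5b from 0.06 to -0.09, the only 2 changes of sign among 183 values of single genes under these alternatives. No gene past the limit changed sign. No paired analysis was possible because each group is 1 library, and for the same reason no library could be left out. Depth limits Csf2 most, with 6 control reads.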

Other observations

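The listed protein-coding genes that flank the 10 genes on the chromosome, looked up after the values of the 10 were seen, lay within the limit unless they were themselves among the 10. So did most listed genes, since 12.7% and 14.7% passed it against control and 8.55% between the treated libraries. The gaps to these flanking genes ran up to 188531 bases. Tst, 45708 bases beyond Csf2rb, had 119, 80 and 63 reads in the libraries in turn, control first and Et2HOBA last, with log2 ratios to control of -0.43 and -0.83. Ift27, 108399 bases beyond Csf2rb2 on the other side, had 780, 781 and 696 reads and log2 ratios of 0.10 and -0.17. The beta chain genes therefore had lower ratios than the nearest listed gene on either side. Csf3 lies between Psmd3 (6852, 6478 and 7710 reads), a proteasome subunit gene 5283 bases away, and Med24 (2901, 2672 and 2199 reads), a Mediator subunit gene 961 bases away. Neither had a higher ratio past the limit, with log2 ratios with Et2HOBA against control of 0.16 for Psmd3 and -0.41 for Med24. Mapkapk3, 6148 bases from Cish, had 49, 63 and 32 reads, and Hemk1 on the other side had 656, 672 and 581.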
